A study of Mus musculus with 123 samples.

Results

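Imprinted genes are expressed from the copy inherited from only 1 parent. The windows described here cover 7 domains of the mouse genome that hold 10 imprinted genes: H19 and Igf2, Dlk1 and Meg3, Sgce and Peg10, Mest, Peg3, Snrpn and Gnas. The data are 3 deposited lists of called peaks, named ES1, ES2 and ES3, and the members are the peaks that share at least 1 bp with a window, in coordinates of the mm9 build. There were 10 such peaks among the 26292 of ES1, 11 among the 21543 of ES2 and 5 among the 12391 of ES3. Merging touching or overlapping peaks of the 3 lists gave 15 regions in the windows, out of 31580 in the genome.

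The series profiled methylation of histone H3 at lysine 4 in single cells, which were lysed in droplets and given a DNA barcode each before their chromatin was pooled for immunoprecipitation. Its 123 libraries, 86 for H3K4me2 and 37 for H3K4me3, came from V6.5 mouse embryonic stem cells (mESC) grown in serum with the cytokine LIF, mouse embryonic fibroblasts (MEF) and the blood progenitor line EML. H3K4me2 libraries from mESC alone numbered 59. The names of the lists are read as 3 sets of embryonic stem cells, but the sources used here do not give their mark, their libraries, how many cells each holds or how cells were assigned. If the assignment used these same profiles, part of any difference between lists follows from it.

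An imprinted domain is controlled by a differentially methylated region, where the DNA of the maternal or the paternal copy is methylated from the germ line onward. Methylation of H3 lysine 4 and methylation of DNA are largely exclusive at such a region, so that the histone mark lies on the copy whose DNA is unmethylated. In embryonic stem cells the DNA methylation of these regions is held in place by factors such as Zfp57, a zinc finger protein that binds the methylated motif TGCCGC. The peak lists do not separate the parental copies.

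The promoters of the imprinted genes differed widely in their number of CpG dinucleotides, the sites at which DNA is methylated. RefSeq promoters of the GRCm38.p6 build (250 bases before to 50 after a start) were found for 7 of the 10 genes, and not for H19, Sgce and Peg10. Shown here is the start with the most CpG of Mest and Gnas, whose windows had a peak in every list, and of Peg3 and Snrpn, whose windows had none. CpG dinucleotides are in capitals, and each sequence runs 5′ to 3′ on the gene's own strand. These starts were not placed on mm9, and no peak is said to lie on them.
Mest, chr6:30737800-30738099, plus strand: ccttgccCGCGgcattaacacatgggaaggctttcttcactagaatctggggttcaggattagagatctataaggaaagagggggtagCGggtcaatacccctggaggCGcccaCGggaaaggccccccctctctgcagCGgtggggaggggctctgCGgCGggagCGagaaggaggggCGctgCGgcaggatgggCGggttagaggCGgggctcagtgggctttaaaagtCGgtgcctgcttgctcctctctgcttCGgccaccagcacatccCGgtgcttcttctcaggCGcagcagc
Gnas, chr2:174329756-174330055, plus strand: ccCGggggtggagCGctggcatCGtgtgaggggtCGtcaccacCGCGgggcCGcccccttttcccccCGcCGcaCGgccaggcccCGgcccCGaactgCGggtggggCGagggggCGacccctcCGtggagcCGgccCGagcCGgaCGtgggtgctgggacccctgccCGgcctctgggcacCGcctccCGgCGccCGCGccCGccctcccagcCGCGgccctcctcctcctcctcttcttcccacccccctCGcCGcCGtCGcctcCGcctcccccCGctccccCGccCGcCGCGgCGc
Peg3, chr7:6730370-6730669, minus strand: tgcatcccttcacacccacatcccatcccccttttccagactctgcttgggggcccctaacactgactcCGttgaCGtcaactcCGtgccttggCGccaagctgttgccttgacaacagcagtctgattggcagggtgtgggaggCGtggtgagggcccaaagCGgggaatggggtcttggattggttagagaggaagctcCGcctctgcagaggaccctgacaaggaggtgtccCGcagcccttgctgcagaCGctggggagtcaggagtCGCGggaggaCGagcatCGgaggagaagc
Snrpn, chr7:60005150-60005449, minus strand: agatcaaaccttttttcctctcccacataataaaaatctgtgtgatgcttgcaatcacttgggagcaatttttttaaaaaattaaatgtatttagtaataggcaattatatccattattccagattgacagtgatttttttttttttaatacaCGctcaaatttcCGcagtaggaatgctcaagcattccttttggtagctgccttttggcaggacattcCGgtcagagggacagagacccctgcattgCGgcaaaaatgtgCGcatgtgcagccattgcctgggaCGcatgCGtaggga

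The Gnas promoter held 40 CpG, more than 95.6% of genes had at their own start with the most CpG. The Mest promoter held 17 and the Peg3 promoter 13, against a median of 8 over 27018 genes, and the Snrpn promoter held 7. Peg3 had as many CpG as Meg3 (13) and more than Dlk1 (9), and Igf2 held 24 at the richest of its 4 starts. A link between CpG number and called peaks was not tested. TGCCGC, searched on both strands, was found 2 times in the Mest promoter shown and 1 time in that of Snrpn, and was not found in those of Gnas and Peg3. Of the 7 genes, 3 held it at their start with the most CpG, Mest, Snrpn and Meg3, against 12.2% of all genes. Counting every start, 5 of 19 held it, among them another of Igf2 and 2 of Mest that share nearly all their bases, against 11.6% of 32841 starts. TGCCGC itself holds a CpG, and the shares over all genes and starts were not matched for CpG number. With 7 genes these shares are coarse, and no test of them was run.

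**Figure D1:**
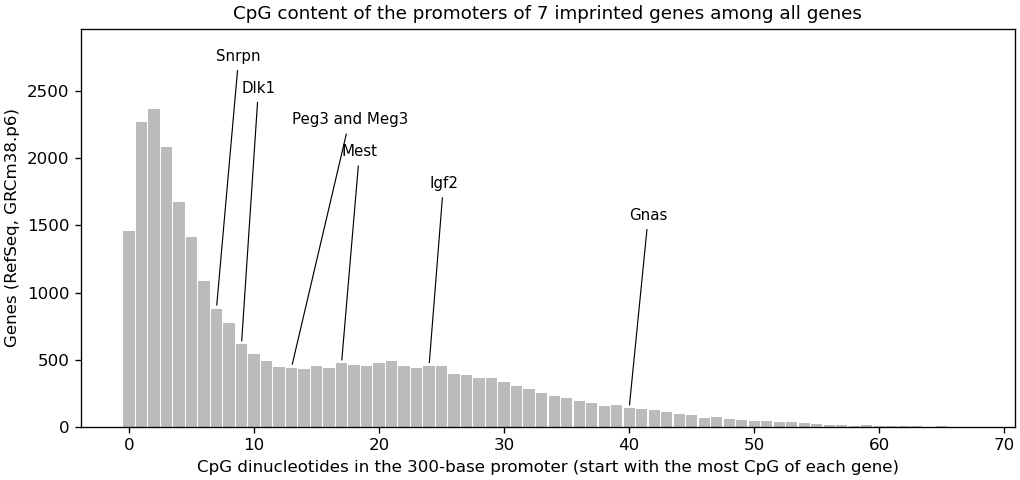
Histogram of the number of CpG dinucleotides in the 300-base promoter of each RefSeq gene (x axis) against the number of genes (y axis), taking the start with the most CpG, with 7 imprinted genes marked. Snrpn, at 7, lies just under the median of 8, and Gnas, at 40, in the upper tail.

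The domains differed in their called peaks, in windows of unequal length, from 25.0 kb to 150 kb. Gnas and Mest had peaks in all 3 lists, Sgce-Peg10 in all 3 lists but with no region common to them, Dlk1-Meg3 in ES1 and ES2, and H19-Igf2 in ES2 only. Peg3 and Snrpn, with windows of 50.0 kb and 45.0 kb, had no peak in any list. At the genome rates given below, a window of either length would often hold no peak of a given list. ES1 had a peak in 4 of the 7 windows, ES2 in 5 and ES3 in 3. The covered sequence was 22.0 kb for ES1, 20.2 kb for ES2 and 8.66 kb for ES3, which were 3.86%, 3.55% and 1.52% of the windows' 570 kb. Over the genome the lists covered 2.43%, 1.77% and 0.865%. Peaks per Mb in the windows were 17.5 (8.41 to 32.3, exact Poisson) for ES1, against 9.96 over the genome. For ES2 they were 19.3 (9.63 to 34.5) against 8.16, and for ES3 8.77 (2.85 to 20.5) against 4.70. These intervals held the genome rate for ES1 and ES3, but not for ES2. They treat peaks as independent, while 2 of the ES2 peaks fell in 1 Gnas region and 4 in the Sgce-Peg10 window. They are thus no test of enrichment. The windows were chosen around genes while the genome values cover all sequence, and the part of this in the difference was not tested.

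**Figure D2:**
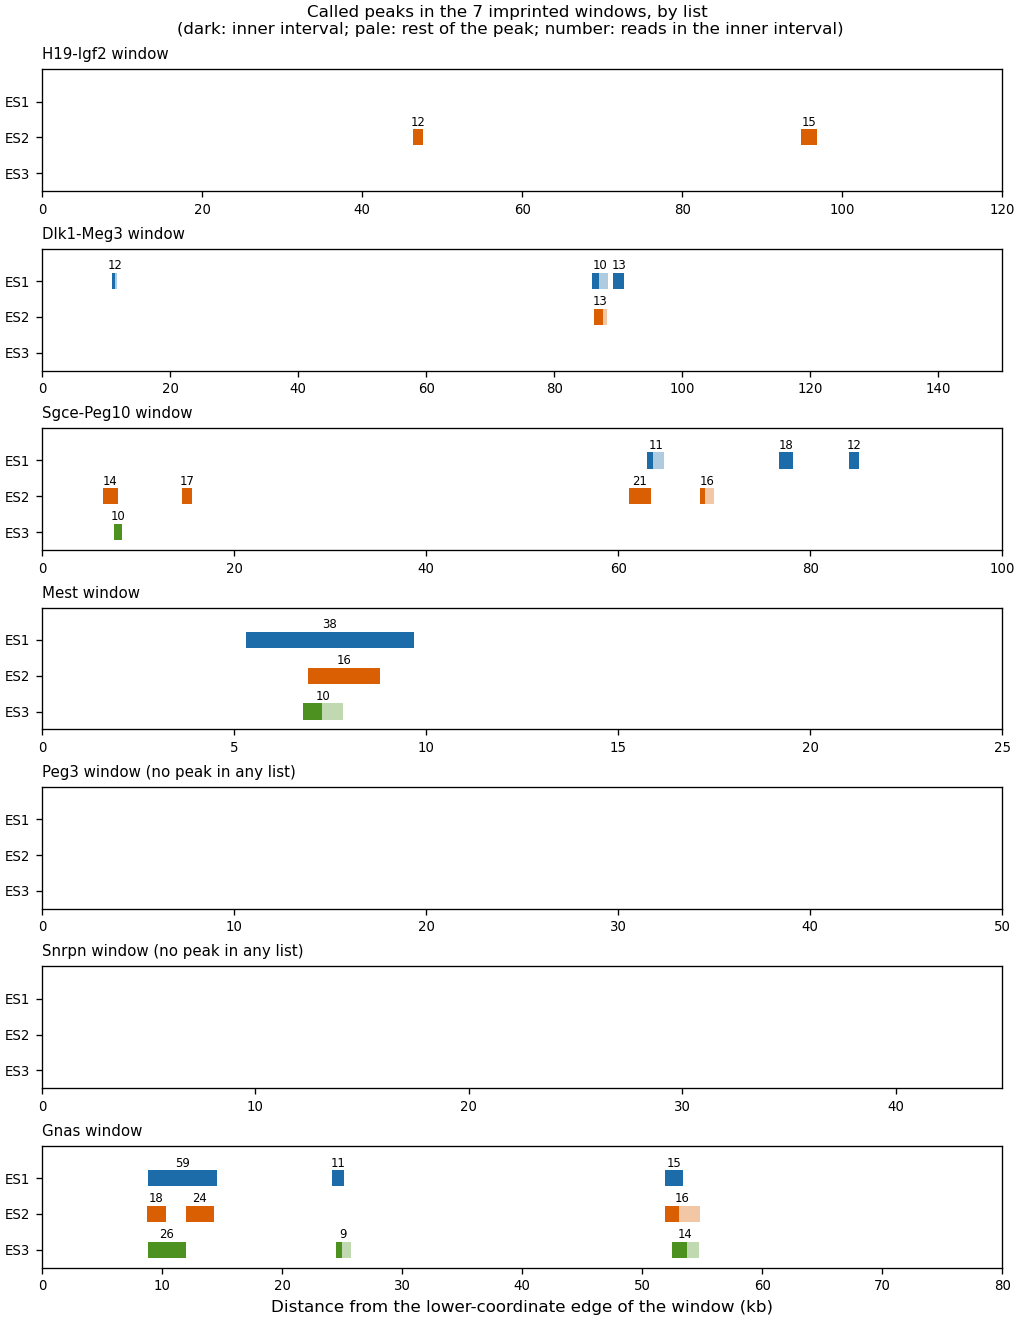
Position of every called peak in the 7 windows, in kb from the window's lower-coordinate edge, with a row for each list. Dark bars are the inner interval in which reads are known, pale bars the rest of the peak, and numbers are the reads in the inner interval. The Mest region and the first and the third Gnas region hold overlapping peaks of all 3 lists, and the Peg3 and Snrpn windows are empty.

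Each peak carries an inner interval and a score, from which the number of reads in that interval was recovered. ES1 rested on 2441443 reads in all, ES2 on 2717742 and ES3 on 2439853, or on about 1 read per kb of the 4 chromosomes concerned (0.792 to 1.22). The inner intervals of the member peaks held 199 reads for ES1 (172 to 229, an exact Poisson 95% interval), 182 for ES2 (157 to 210) and 69 for ES3 (53.7 to 87.3). They summed to 18.9 kb, 17.0 kb and 6.30 kb, so that the read density within them was 10.5, 10.7 and 11.0 reads per kb. These densities are sums over peaks called separately in each list, with 3 of the 15 regions called in all 3 lists, and only called peaks enter them, so their closeness is no measure of likeness between lists. Intervals cover counting error only, since amplified reads need not be independent molecules. Each list is a single one without replicates, so no p-value is given for any difference.

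Gnas encodes the alpha subunit of the stimulatory G protein, and its locus also makes transcripts from several other first exons, some of them expressed from the maternal and some from the paternal copy. Its window had 3 peaks in each list, which merged into 3 regions. The covered length was 8230 bp for ES1, 6819 bp for ES2 and 6775 bp for ES3, or 10.3%, 8.52% and 8.47% of the window. Of the 7 windows, only that of Mest had a larger share covered in ES1.

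The first Gnas region, chr2:174108750-174114536, was the widest in any of the windows, at 5787 bp. ES1 covered it with 1 peak of 5744 bp and 59 reads (44.9 to 76.1). ES2 had 2 peaks there, of 1560 bp with 18 reads and 2340 bp with 24 reads, and ES3 had 1 peak of 3172 bp with 26 reads. The 3 lists began within 63 bp of each other on the lower-coordinate side, and on the other side ES3 ended 2552 bp before ES1. Read density came to 10.3 reads per kb for ES1, 10.8 for ES2 and 8.20 for ES3. The ratio of ES3 to ES1 was 0.798 (0.483 to 1.29) and that of ES2 to ES1 1.05 (0.689 to 1.58), so neither differed from 1 beyond counting error. The peaks of ES1 and ES3 lay in the upper part of their lists by width, above 92.5% and 88.4% of peaks, while the ES3 score of 7.20 was higher than that of only 0.977% of ES3 peaks.

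The second Gnas region, chr2:174124196-174125758, was called in ES1 and ES3 and not in ES2, as were 4.95% of all regions. ES1 had 11 reads (5.49 to 19.7) over 991 bp. ES3 had 9 reads (4.12 to 17.1) in an inner interval of 501 bp, the first part of a peak of 1308 bp. That count was the fewest of any member peak and equal to the fewest behind any ES3 peak on chromosome 2. The density ratio of ES3 to ES1 was 1.62 (0.593 to 4.30).

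The third Gnas region, chr2:174151900-174154818, was called in all 3 lists with nearly equal reads: 15 for ES1 (8.40 to 24.7), 16 for ES2 (9.15 to 26.0) and 14 for ES3 (7.65 to 23.5). Here ES1 had the narrowest peak, of 1495 bp, against 2919 bp in ES2 and 2295 bp in ES3. ES3 against ES1 gave a covered width 1.54 times as large, where the median over all regions called in the 3 lists was 0.658. The density ratio of ES3 to ES1 was 1.08 (0.483 to 2.40), and all 3 peaks shared 944 bp.

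Peaks also lay just outside the Gnas window on its lower-coordinate side. ES1 had a peak of 1526 bp with 18 reads 0.613 kb from the edge, and ES2 one of 1140 bp with 13 reads at 0.427 kb. Farther out, at 9.99 kb, ES1 had a peak of 6990 bp with 89 reads (71.5 to 110), more than any member peak held. Wholly inside its span ES2 had a peak of 2818 bp with 31 reads and ES3 one of 3885 bp with 28 reads, at 12.2 kb and 10.5 kb from the edge. Widening every window by 10 kb therefore raised the reads of ES1 from 199 to 306, those of ES2 from 182 to 195, and left those of ES3 at 69.

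Mest, expressed from the paternal copy, encodes a protein of the hydrolase fold, and its window is the shortest, at 25.0 kb. A single region, chr6:30685313-30689671, was called in all 3 lists. ES1 had a peak of 4359 bp with 38 reads (26.9 to 52.2), ES2 of 1872 bp with 16 reads (9.15 to 26.0) and ES3 of 1051 bp with 10 reads (4.80 to 18.4). The ES2 and ES3 peaks lay wholly within the ES1 peak and made up 42.9% and 24.1% of its length, and 912 bp were common to all 3. The ES3 peak was 0.241 times as wide as the ES1 peak, where the median over all regions in the 3 lists was 0.658.

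Read density at Mest was 8.72 reads per kb for ES1, 8.55 for ES2 and 20.0 for ES3. The ES3 value comes from an inner interval of 500 bp, the shortest length that occurs in any list, and the ES1 and ES2 values from intervals that span the whole peak. ES3 was 2.29 times ES1 (1.02 to 4.69) and 2.34 times ES2 (0.949 to 5.48). Relative to the mean of the chromosome in each list the ratios were 2.22 (0.988 to 4.55) and 2.58 (1.05 to 6.05), so which of the intervals held 1 depended on the scale. The ES3 count of 10 was just above 9, the fewest reads behind any ES3 peak on chromosome 6. With 9 reads or more, an inner interval of 500 bp has a higher density than ES1 and ES2 had here. The reads in the remaining part of the ES3 peak are unknown. The parts of this lower limit and of the unequal lengths in the ratio were not tested. Among the 4 member regions called in both ES1 and ES3, Mest was the only one at least 2 times higher in ES3, as were 3.11% of all regions called in both. None was at least 2 times lower, against 9.82%. Against ES2, Mest was again the only 1 of 4 at least 2 times higher in ES3 (3.41% of all regions called in both), and none was lower by that much (7.89%).

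Sgce encodes epsilon-sarcoglycan, a membrane protein, and Peg10 is a gene derived from a retrotransposon and needed in the placenta. Both are expressed from the paternal copy and are direct neighbours, with no gene between them in RefSeq. Their window had the most regions, 6, and no region common to all 3 lists: 2 regions were called in ES1 only, 2 in ES2 only, 1 in ES1 and ES2, and 1 in ES2 and ES3.

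On the lower-coordinate side of the Sgce-Peg10 window the peaks were those of ES2 and ES3. At chr6:4626374-4628311, ES2 had 14 reads (7.65 to 23.5) in a peak of 1510 bp and ES3 10 reads (4.80 to 18.4) in a peak of 836 bp, and the peaks shared 408 bp. Regions in ES2 and ES3 without ES1 were the rarest of the combinations over the genome, at 2.05%. ES2 alone had a further peak at chr6:4634598-4635639 with 17 reads (9.90 to 27.2) over 1042 bp.

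On the higher-coordinate side the peaks were those of ES1 and ES2, with none in ES3. At chr6:4681110-4684824, ES1 had 11 reads in an inner interval of 600 bp and ES2 21 reads over 2320 bp. The peaks met over 439 bp only, which was 23.9% of the ES1 and 18.9% of the ES2 peak. The inner interval of ES1 was 32.7% of its peak, and the reads in the rest are unknown. Most of the ES2 peak lay outside that interval, so the densities come largely from different bases. The part of this in their ratio was not tested. ES2 had 0.494 times the read density of ES1 (0.228 to 1.13), an interval that holds 1. Relative to the mean of the chromosome in each list the ratio was 0.434 (0.200 to 0.996), which does not hold 1. Of all regions called in both lists, 6.76% were at least 2 times lower in ES2, and this was the only 1 of the 5 member regions in that class. None was at least 2 times higher in ES2, against 4.62%.

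ES2 alone was called at chr6:4688571-4689983, where 16 reads (9.15 to 26.0) in 501 bp gave 31.9 reads per kb, the highest density of any member peak. Its score of 28.6 was above that of 97.6% of ES2 peaks. That interval was near the shortest of any list, 500 bp, and was 35.5% of the peak. By reads the peak was above only 49.6% of ES2 peaks, and by width above 40.8%. ES1 alone was called at chr6:4696769-4698189 with 18 reads (10.7 to 28.4) and at chr6:4704012-4705049 with 12 reads (6.20 to 21.0). The peak of ES2 alone thus lay between peaks of ES1, and the gaps between these 4 regions were 3.75 kb, 6.79 kb and 5.82 kb.

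Dlk1 encodes a membrane protein related to Notch ligands and is expressed from the paternal copy. Meg3, formerly Gtl2, is a long noncoding RNA of the maternal copy. The lower-coordinate edges of 2 RefSeq genes, Gm34081 and Gm34017, fall between those of Dlk1 and Meg3. The window had 3 peaks in ES1, 1 in ES2 and none in ES3. ES1 alone was called near the window's lower edge, at chr12:110690897-110691757, with 12 reads (6.20 to 21.0) in an inner interval of 501 bp. Its score of 30.2 was above 96.2% of ES1 peaks, but that interval was near the shortest of any list, 500 bp. By reads the peak was above only 23.3% of ES1 peaks.

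The other Dlk1-Meg3 peaks lay together, 74.1 kb farther along. ES1 and ES2 were both called at chr12:110765887-110768488, where the ES2 peak of 1959 bp lay wholly within the ES1 peak of 2602 bp. Reads numbered 10 in ES1 (4.80 to 18.4) and 13 in ES2 (6.92 to 22.2), and the density ratio of ES2 to ES1 was 1.04 (0.422 to 2.65). ES1 had another peak only 0.747 kb on, at chr12:110769236-110770890, with 13 reads over 1655 bp. The nearest ES3 peaks were 427 kb below and 355 kb above the window, against 356 kb and 267 kb for ES1 and 356 kb and 20.0 kb for ES2. At the mean density of chromosome 12 the window would hold 124 ES3 reads, spread over its 150 kb. The fewest reads behind a peak on that chromosome were 8 in each list. Those lie within 1 inner interval, which can be as short as 500 bp, so these numbers are not on the same scale of length.

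H19 is a noncoding RNA expressed from the maternal copy, and Igf2, a growth factor, is expressed from the paternal copy. The lower-coordinate edges of Mir675, which lies within H19, and of Gm33148 fall between those of H19 and Igf2 in RefSeq. The only peaks in the window of 120 kb were 2 of ES2, as 12.8% of all regions were called in ES2 and in no other list. At chr7:149796343-149797640 there were 12 reads (6.20 to 21.0) over 1298 bp. At chr7:149844850-149846838, 47.2 kb farther along, there were 15 reads (8.40 to 24.7) over 1989 bp. Both had low scores, 9.02 and 7.35, above 18.5% and 3.76% of ES2 peaks. The nearest ES1 peaks were 176 kb below and 283 kb above the window, and the nearest ES3 peaks 987 kb and 321 kb.

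Peg3 encodes a zinc finger protein and Snrpn a protein of the small nuclear ribonucleoprotein, both expressed from the paternal copy. Neither window had a peak in any list. Around Peg3 the nearest peaks were 297 kb below and 374 kb above in ES1, 314 kb and 373 kb in ES2, and 367 kb and 552 kb in ES3. Around Snrpn they were 1201 kb and 2362 kb away in ES1, 1633 kb and 2333 kb in ES2, and 1633 kb and 3843 kb in ES3. Snrpn thus sat in the widest stretch without peaks among the 7 windows in each list. At the mean density of chromosome 7 the Peg3 window would hold 45.6 to 51.3 reads and the Snrpn window 41.0 to 46.1, depending on the list. Those reads would be spread over the whole window. The fewest reads behind a peak on that chromosome were 9, within an inner interval that can be as short as 500 bp. Outside called peaks the files hold no values, so the mark in these windows is not shown to be 0.

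**Figure D3:**
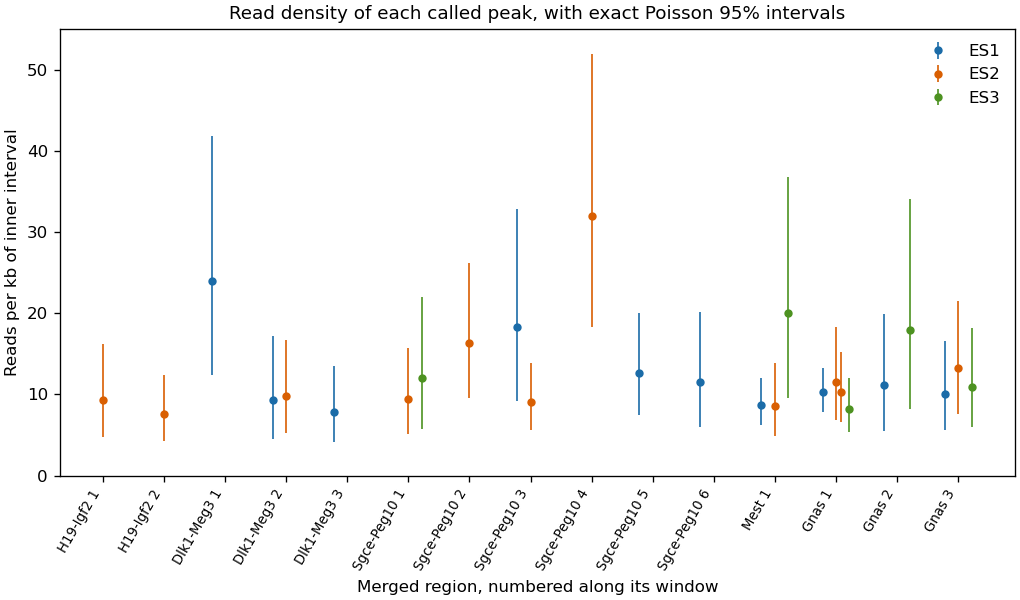
Reads per kb of inner interval (y axis) for each of the 26 member peaks, arranged by merged region along each window (x axis), with bars for the exact Poisson 95% interval and colours for the lists. The highest is the ES2 peak of the fourth Sgce-Peg10 region at 31.9, from an inner interval of 501 bp. The intervals of different lists within a region overlap, which does not show that their densities are equal.

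Regions of the imprinted domains were found in a single list at a share of 8 of 15, where 43.1% of all regions were. Of these 8, 4 were in ES1 and 4 in ES2, against 27.3% and 12.8% of all regions, and none was in ES3, against 2.97%. Another 2 were in ES1 and ES2 without ES3 (23.8% of all regions), 1 in ES1 and ES3, and 1 in ES2 and ES3. All 3 lists shared 3 regions, Mest with the first and the third of Gnas, where 26.2% of all regions were shared. With 15 regions these shares are coarse, and no test of them was run.

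Read from each list, 4 of the 5 regions with an ES3 peak also had an ES1 peak (86.1% of all), and 4 of 5 an ES2 peak (78.1%). Of the 10 regions with an ES1 peak, 5 had an ES2 peak (60.7%) and 4 an ES3 peak (37.9%). Of the 10 with an ES2 peak, 5 had an ES1 peak, against 77.1% of all, and 4 an ES3 peak, against 43.6%. By bases, ES1 and ES2 shared 43.7% of the ES1 and 47.6% of the ES2 length in the windows, against 50.9% and 69.7% over the genome. ES1 and ES3 shared 26.8% and 68.1%, against 28.0% and 78.4%. ES2 and ES3 shared 25.3% and 59.0%, against 32.8% and 67.2%.

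Most member peaks ranked low by score within their own list. The score was below the list's median in 20 of 26 peaks: 8 of 10 in ES1, 9 of 11 in ES2 and 3 of 5 in ES3. Median scores of member peaks were 11.1, 9.02 and 11.8, against 14.7, 12.7 and 12.9 over all peaks of ES1, ES2 and ES3. Widths were nearer the middle, with medians of 1575 bp, 1872 bp and 1308 bp against 1684 bp, 1660 bp and 1517 bp. Median reads were 12.5, 16 and 10 against 16, 16 and 14, and 21 of the 26 member peaks held at most 20 reads.

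**Figure D4:**
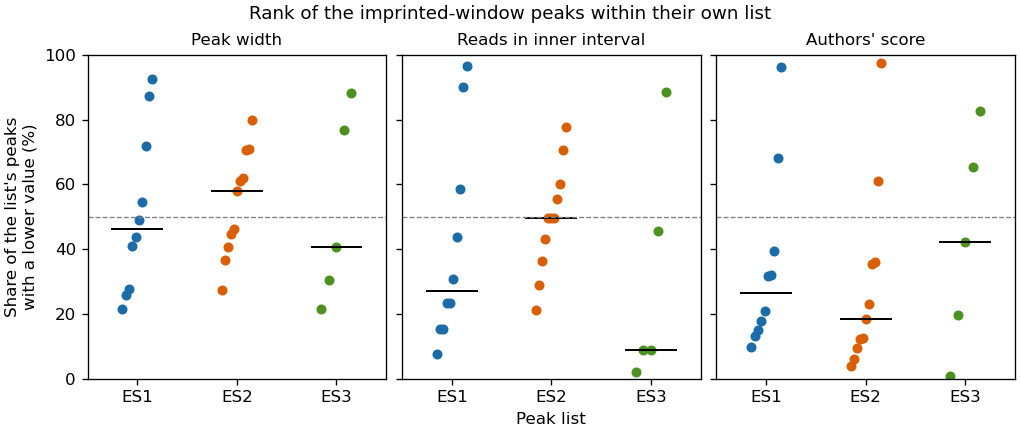
Rank of each member peak within its own list, as the share of that list's peaks with a lower value (y axis, %), by list (x axis), for width, reads and the authors' score. Points are peaks, black lines the median of the member peaks, and the dashed line 50%. Scores lie mostly under the dashed line, with single peaks of ES1 and ES2 above 96%, each from an inner interval of 501 bp.

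The counts depended on where the lists were ended. With the longer lists shortened to 12391 peaks, the length of ES3, from the top by score, the windows held 2 peaks of ES1, 2 of ES2 and 5 of ES3, and no region was in all 3 lists. Shortened by reads, they held 3, 8 and 5, and 2 regions were in all 3 lists. The order of the lists by member peaks thus depended on list length and on the ranking.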

How the data were processed

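The authors deposited 3 peak lists (ES1, ES2, ES3) with a position, an inner interval and a score for each peak. The score has no stated unit. Reads were aligned with Bowtie to mm9, per the submitters' processing notes. The sources used here name no peak caller. In 100% of peaks the authors' score times the inner length was a whole multiple of 1 unit per chromosome and list (tolerance 0.001), taken here as reads, so the deposited score is read as a density relative to the chromosome mean. Whole chromosome lengths that fit these units were found for 20 of 20 chromosomes and gave the total reads. This reading is assumed, and duplicates may be included.

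Starts were written counting from 1. Merging joined touching peaks. Ratios of read densities have intervals from the exact binomial split of their reads, reads exact Poisson ones (95%). The code was tested on simulated data. Members, windows and lists were chosen with earlier results of these data known. All member genes are named, and regions are described in every window, at most 10 in each. No mm9 annotation was used, so peaks were not assigned to promoters, exons or differentially methylated regions, and the list of further imprinted genes was not counted. RefSeq tables of GRCm38.p6 gave names, neighbours and promoters only. The libraries, in 8 groups by label, could not be tied to a list and were not compared. Python 3.11.15 was used, with numpy 2.4.6, pandas 2.3.3, scipy 1.17.1 and matplotlib 3.10.9.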

Additional observations from a re-analysis of the deposited data

How the results depend on the processing

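Counting only peaks wholly inside a window changed none of the counts, lengths or reads per list. Widening the windows by 10 kb raised the reads of ES1 to 306 and left the other values within their interval or within 1.5 times. Most of that rise came from an ES1 peak 9.99 kb from the Gnas window. The ES3 and ES2 peaks within its span, at 10.5 kb and 12.2 kb, stayed outside. Lists of 12391 peaks by score left 2 peaks, 2695 bp and 23 reads in ES1 and 2 peaks, 2455 bp and 33 reads in ES2. By reads, chosen after the data were seen, they left 3 peaks, 11524 bp and 115 reads in ES1 and 143 reads in ES2. Regions in all 3 lists numbered 0 with at least 50% of both peaks shared (8.82% of all regions met that rule), 0 with equal lists by score (11.5%), 2 by reads (20.5%), 3 with peaks within 1 kb joined and 4 with wider windows. Densities relative to the chromosome mean, also chosen after, left all 13 ratios within their intervals but turned whether the interval held 1 for 3 of them: Mest in ES3 over ES1 (2.22, 0.988 to 4.55) and over ES2 (2.58, 1.05 to 6.05), and Sgce-Peg10 in ES2 over ES1 (0.434, 0.200 to 0.996). Of 54 values under an alternative, 13 moved. Those of ES3 under equal lists could not move, since ES3 set the length, so this share is no measure of stability. Densities over only the bases in the inner intervals of both lists were not run, since the position of reads within an interval is unknown. No paired analysis was possible because each list stands alone, with no numbered replicates. At about 1 read per kb, a region without a peak is not shown to be unmarked.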
